A study of Mus musculus with 36 samples.

Results

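The genes described here are *Gata2*, *Gata3*, *Tfap2a*, *Tfap2b*, *Tfcp2l1* and *Calb1*, which in the kidney are used as marks of the ureteric epithelium and of the distal end of the nephron. They were chosen by name, as the rows whose Ensembl identifier maps to these 6 symbols, a rule that uses no threshold on a measured value. All 6 had a row in each of 3 tables of normalized counts, which list 25760 genes for wild-type nephron progenitor cells (NPCs), 26863 genes for NPCs with β-catenin removed and 26472 genes for NPCs with the Tcf/Lef factors removed.

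The NPCs were isolated from embryonic mouse kidneys by depleting cells that carry CD105, CD140, Ter119 or CD326, and were cultured with the GSK3 inhibitor CHIR99021 (CHIR), an agonist of the Wnt pathway. Wild-type NPCs received no CHIR (0 µM), low CHIR (1.25 µM) or high CHIR (5 µM), with 3 libraries each. For β-catenin removal, NPCs of the genotype Cas9-eGFP were transfected with sgRNAs to *Ctnnb1*, or with an sgRNA to GFP as the control, and NPCs of the genotype B-catenin_c_c were left without Cre (Cre-neg) or given Cre mRNA (Cre-pos). Each of these groups had 2 libraries in low and 2 in high CHIR. For Tcf/Lef removal, Cas9-eGFP NPCs received sgRNAs to *Tcf7*, *Lef1*, *Tcf7l1* and *Tcf7l2* (quadruple knockout, QKO) or to GFP, with 3 libraries per group except for QKO in low CHIR, which had 2. All Cas9-eGFP groups, controls included, carry Cas9 and received an sgRNA, and transfected cells were sorted by a co-transfected mCherry reporter, so that each library is a bulk measurement of a pool of edited cells, in which fewer cells of a type and less RNA per cell cannot be told apart. The labels do not say that libraries of a group come from separate litters or cultures, so p-values measure the spread between these libraries, which may be technical.

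As background, Gata2 and Gata3 are zinc finger transcription factors. Gata3 acts in the nephric duct and the ureteric bud downstream of Wnt/β-catenin signaling, and it persists in the collecting duct, while Gata2 acts in the urogenital tract and the collecting duct as well as in blood and endothelium. Tfap2a and Tfap2b belong to the AP-2 family, and Tfap2b is required for the distal tubule. Tfcp2l1 is a grainyhead-like factor of the collecting duct, and *Calb1* encodes calbindin, a calcium-binding protein of the ureteric bud and the connecting tubule. β-catenin has no DNA-binding domain and reaches its target genes through Tcf/Lef factors, which read the core sequence CTTTGA.

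In the GENCODE vM21 annotation of GRCm38, *Gata2* (ENSMUSG00000015053) lies at chr6:88193891-88207032 on the plus strand. *Gata3* (ENSMUSG00000015619) lies at chr2:9857078-9890034 on the minus strand. *Tfap2a* (ENSMUSG00000021359) lies at chr13:40715302-40738376 on the minus strand and *Tfap2b* (ENSMUSG00000025927) at chr1:19208914-19238576 on the plus strand. *Tfcp2l1* (ENSMUSG00000026380) lies at chr1:118627945-118685168 and *Calb1* (ENSMUSG00000028222) at chr4:15881264-15908064, both on the plus strand. *Gata3* overlaps the opposite-strand genes *Gm13256* and *4930412O13Rik*, which reached at most 6.72 and 12.2 normalized counts in any library, and *Tfap2a* overlaps the antisense genes *Gm47061* and *Gm26688*, which reached at most 12.6 and 81.0. The counting is not stated to use strand, so reads of *Tfap2a* and of its antisense partners cannot be told apart.

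RefSeq promoters of GRCm38.p6, the 250 bases before a start, matched 5 of the 6 genes with 7 starts, and *Calb1* had no entry. The promoters of *Gata3* and both promoters of *Gata2* are shown because these genes rose in high CHIR. Capitals mark matches to GCCNNNGGC, the palindrome that AP-2 factors read, and each sequence is written along the strand of its gene.

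*Gata3* promoter (chr2:9878601-9878850, minus strand): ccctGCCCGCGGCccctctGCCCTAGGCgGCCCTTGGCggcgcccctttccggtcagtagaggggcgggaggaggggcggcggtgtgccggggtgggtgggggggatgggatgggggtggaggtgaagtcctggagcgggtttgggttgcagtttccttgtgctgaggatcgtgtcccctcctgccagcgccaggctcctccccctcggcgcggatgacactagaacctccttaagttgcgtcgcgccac

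*Gata2* promoter at the distal start (chr6:88193641-88193890, plus strand): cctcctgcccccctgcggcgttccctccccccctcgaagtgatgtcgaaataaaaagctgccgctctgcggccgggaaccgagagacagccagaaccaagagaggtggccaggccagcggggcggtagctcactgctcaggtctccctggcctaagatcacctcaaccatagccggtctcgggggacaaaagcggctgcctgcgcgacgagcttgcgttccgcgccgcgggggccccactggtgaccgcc

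*Gata2* promoter at the proximal start (chr6:88198414-88198663, plus strand): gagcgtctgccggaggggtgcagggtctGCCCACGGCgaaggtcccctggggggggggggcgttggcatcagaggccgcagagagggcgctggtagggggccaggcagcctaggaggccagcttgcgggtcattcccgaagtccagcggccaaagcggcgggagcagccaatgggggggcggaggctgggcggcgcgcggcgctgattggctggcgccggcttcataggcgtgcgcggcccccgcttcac

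The AP-2 palindrome was found in 3 of the 7 promoters, with 3 matches before *Gata3*, 1 before the proximal start of *Gata2* and 1 before *Tfcp2l1*, against 13.7% of 32851 promoters of the same length. The Tcf/Lef core CTTTGA, or its reverse complement TCAAAG, was found in 0 of the 7, against 13.8% of all promoters, and the Gata motif AGATAA, or TTATCT, in 0 of the 7, against 9.99%. A match or its absence describes these letters in this window and says nothing of binding. The counts are per gene, so they do not show which start of *Gata2* was used.

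The sgRNAs are shown because the comparisons with removed β-catenin or Tcf/Lef factors rest on them. They are written as the study lists them, with U or T. Positions are exonic matches in GRCm38, each followed by an NGG PAM. The *Tcf7l2* site lies in 1 of 22 annotated transcripts of its gene, the *Tcf7l1* site in 3 of 5 and the *Tcf7* site in 2 of 2.

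*Ctnnb1* sgRNA1 (chr9:120950987-120951006, minus strand): atgagcagcgtcaaactgcg

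*Ctnnb1* sgRNA3 (chr9:120951011-120951030, minus strand): agccaagcgctggacattag

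*Ctnnb1* sgRNA5 (chr9:120950729-120950748, minus strand): agctacttgctcttgcgtga

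*Ctnnb1* sgRNA6 (chr9:120951618-120951637, minus strand): gagattatgcagtgtcgtga

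*Tcf7* sgRNA (chr11:52261584-52261603, plus strand): agcugggggacgccaugugg

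*Tcf7l1* sgRNA (chr6:72788307-72788326, plus strand): cuuaaaaaaagcgccauccu

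*Tcf7l2* sgRNA (chr19:55743069-55743088, plus strand): uuagcggccaagaggcaaga

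*Lef1* sgRNA (no match in an annotated transcript): cucccaggaaagcauccaga

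GFP sgRNA (control, no match looked for in the mouse genome): gggcgaggagctgttcaccg

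Over the 36 libraries, depth lay between 13089780 and 76071568 reads on genes. With the *Ctnnb1* sgRNAs, *Ctnnb1* had 1630 and 1270 normalized counts in high CHIR against 2632 and 2701 with the GFP sgRNA (difference -0.89, adjusted p = 0.0429, limma), and 1652 and 1040 against 2521 and 3397 in low CHIR. Its total was not lower in Cre-pos NPCs in high CHIR (2254 and 2583 against 2423 and 2207 in Cre-neg) and was 3085 and 2451 against 3880 and 3097 in low CHIR (difference -0.33, adjusted p = 0.657). Here reads were counted over the whole gene and the total is no check of the label. By immunostaining, the paper reports that β-catenin protein was reduced by the sgRNAs and by Cre, but not abolished. It also reports incomplete loss with single sgRNAs to the Tcf/Lef factors, weakest for Tcf7. Removal in this text therefore means a partial loss. Of the genes targeted in QKO, *Tcf7* had 110, 180 and 127 normalized counts in high CHIR against 534, 535 and 268 with the GFP sgRNA (difference -1.64, adjusted p = 0.0175). The differences of *Lef1* (-2.12), *Tcf7l1* (0.15) and *Tcf7l2* (-0.35) did not pass the test, and edited transcripts can still be counted. In wild-type NPCs the mean rose from 146 in low to 950 in high CHIR for *Tcf7*, and from 364 to 5711 for *Lef1*. A lower level of these genes in QKO NPCs therefore cannot tell editing from a smaller response to CHIR. In wild-type NPCs in high CHIR, replicate 3 stood apart from replicates 1 and 2. It held 104 normalized counts of *Lhx1* against 5949 and 6706, 94.4 of *Pax8* against 7800 and 7498, and 11108 of *Wnt4* against 1315 and 1473, while *Six2* was low in all of them (60.5, 79.6 and 65.4). Results that rest on this library are given with and without it.

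High CHIR raised the level of *Gata2* in wild-type NPCs. *Gata2* had 771, 752 and 1187 normalized counts in the 3 libraries in high CHIR, against 80.2, 53.2 and 41.9 in low CHIR and 49.2, 32.2 and 45.8 with no CHIR. Every library in high CHIR lay above every library in low CHIR, and the groups with low and no CHIR overlapped. The difference between high and low CHIR was 3.95 on the log2(normalized count + 1) scale (SE 0.31, adjusted p = 5.03e-05), from limma across all genes with a mean of at least 10 and Benjamini-Hochberg adjustment, which is the test of each adjusted p below unless another is named. This scale understates the change of low genes. Without replicate 3 in high CHIR the difference was 3.73 (adjusted p = 0.00011).

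*Gata3* rose as well, to the highest level of the 6 genes. It had 4283, 4098 and 623 normalized counts in high CHIR, against 61.8, 61.7 and 37.1 in low CHIR and 107, 51.2 and 51.4 with no CHIR. The lowest library in high CHIR, replicate 3, was still above all libraries in low and no CHIR, which overlapped with each other. The difference between high and low CHIR was 5.39 (SE 0.65, adjusted p = 0.000635), and without replicate 3 it was 6.30 (SE 0.36, adjusted p = 7.28e-06).

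Neither AP-2 gene passed the test with all libraries. *Tfap2a* had 435, 657 and 15.9 normalized counts in high CHIR, against 32.9, 42.7 and 18.0 in low CHIR and 5.10, 8.78 and 3.35 with no CHIR. Replicates 1 and 2 in high CHIR were far above low CHIR and replicate 3 was below it. The difference was 2.48 (SE 1.13, adjusted p = 0.207) with all libraries and 4.14 (SE 0.50, adjusted p = 0.000532) without replicate 3, so that this library decides the call. With all libraries, edgeR on recovered reads gave 3.54 (adjusted p = 0.0465) and DESeq2 gave 3.57 (adjusted p = 0.00826). With no CHIR, all 3 libraries were below those in low CHIR, a difference of -2.25 (SE 1.13, adjusted p = 0.273) that was past the threshold only in a fit of the no and low CHIR libraries (adjusted p = 0.028).

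*Tfap2b* had 28.0, 50.25 and 0 normalized counts in high CHIR against 72.3, 140 and 50.30 in low CHIR. The groups did not overlap, by a margin of under 1 count, and the difference was -2.82 (SE 1.18, adjusted p = 0.169). Without replicate 3 in high CHIR, in which no read of *Tfap2b* was counted, it was -1.07 (adjusted p = 0.188). With no CHIR it had 39.8, 55.6 and 48.0 normalized counts.

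*Tfcp2l1* and *Calb1*, the markers of later collecting duct and connecting tubule, were low in all groups. *Tfcp2l1* had 31.4, 30.7 and 56.1 normalized counts in high CHIR, against 101, 20.9 and 51.5 in low CHIR and 152, 79.0 and 55.9 with no CHIR. The groups overlapped and the difference between high and low CHIR was -0.33 (SE 0.57, adjusted p = 0.772). *Calb1* had 54.9, 20.9 and 3.74 in high CHIR, 17.1, 1.90 and 0 in low CHIR and 1.02, 10.2 and 4.47 with no CHIR. These groups overlapped too, with a difference of 2.26 between high and low CHIR (SE 1.21, adjusted p = 0.284) and of 3.23 (adjusted p = 0.105) without replicate 3.

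Of the 6 genes, 2 were called higher in high than in low CHIR in wild-type NPCs, by an adjusted p under 0.05 and a log2 difference of at least 0.5, while 10.4% of the 17411 genes tested were called in either direction. Without replicate 3, and with edgeR or DESeq2, 3 were called. The median difference over the 6 was 2.37 against 0.01 over all genes tested. The 6 differences had both signs, and the middle 2, of *Tfap2a* and *Calb1*, were not called by limma with all libraries. *Calb1* reached the filter through high CHIR, with a mean of 26.5 there against 6.33 in low and 5.24 with no CHIR. The median therefore does not show a shift of the set. Between no and low CHIR, limma called 0 of the 6, against 4.97% of all genes. By that comparison 0 of them had an unadjusted p under 0.05, against 3040 of all 17411 genes, and edgeR and DESeq2 also called 0. Here and below, such counts over all genes also require a log2 difference of at least 0.5.

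Per kilobase of exon, the genes ranked in high CHIR as *Gata3* (755 normalized counts per kb), *Gata2* (167), *Tfap2a* (75.3), *Calb1* (5.47), *Tfcp2l1* (4.17) and *Tfap2b* (4.12). The last 3 did not differ beyond their spread. In low CHIR all 6 lay between 1.31 and 13.8 normalized counts per kb, with *Tfap2b* (13.8), *Gata3* (13.5) and *Gata2* (10.8) at the top.

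**Figure D1:**
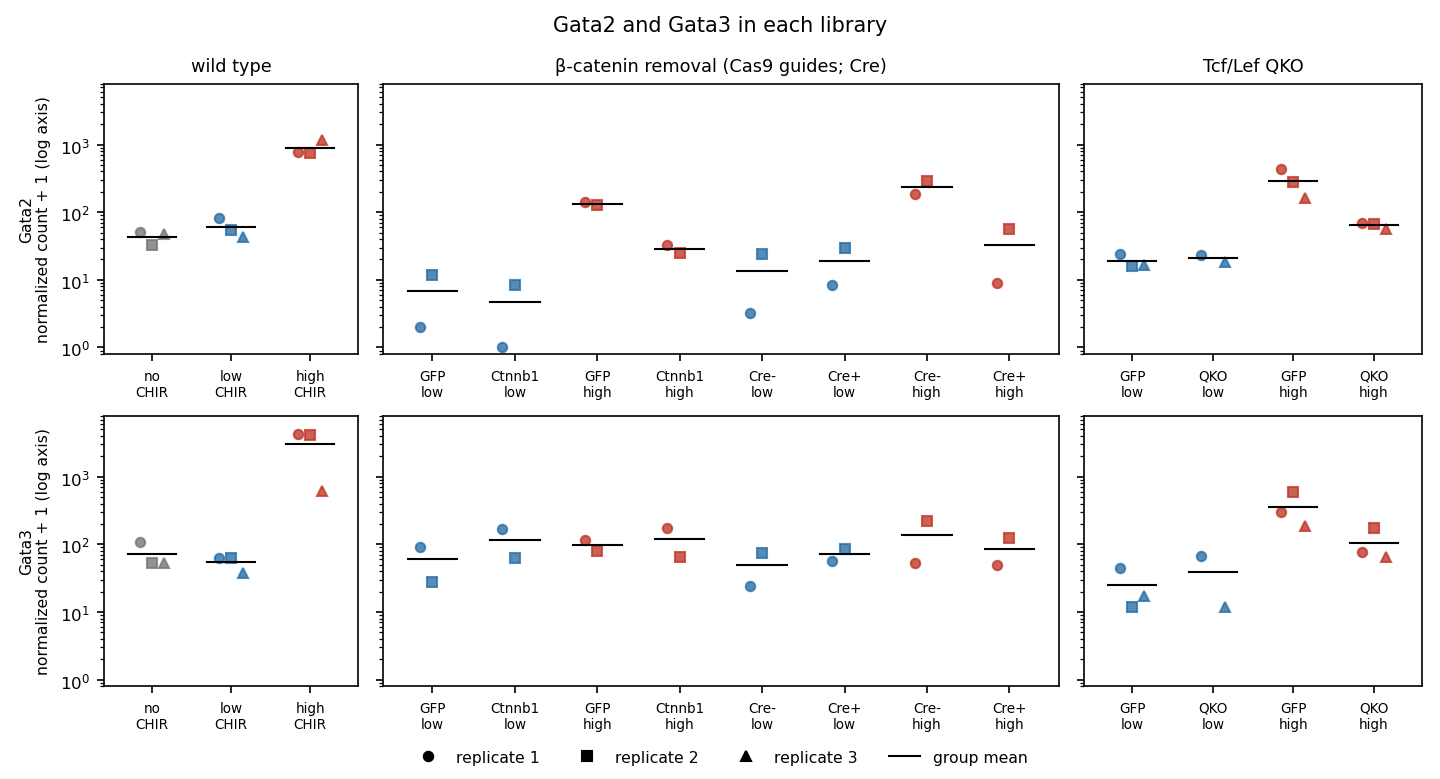
Normalized counts of *Gata2* and *Gata3* plus 1 in every library, on a log axis, by group, with 1 point per library, the shape giving the replicate, and a line at the group mean. In the wild-type panel, all 3 high CHIR libraries lie above the low and no CHIR libraries for both genes, and replicate 3 is the lowest of the high CHIR libraries for *Gata3* (623) and the highest for *Gata2* (1187).

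**Figure D2:**
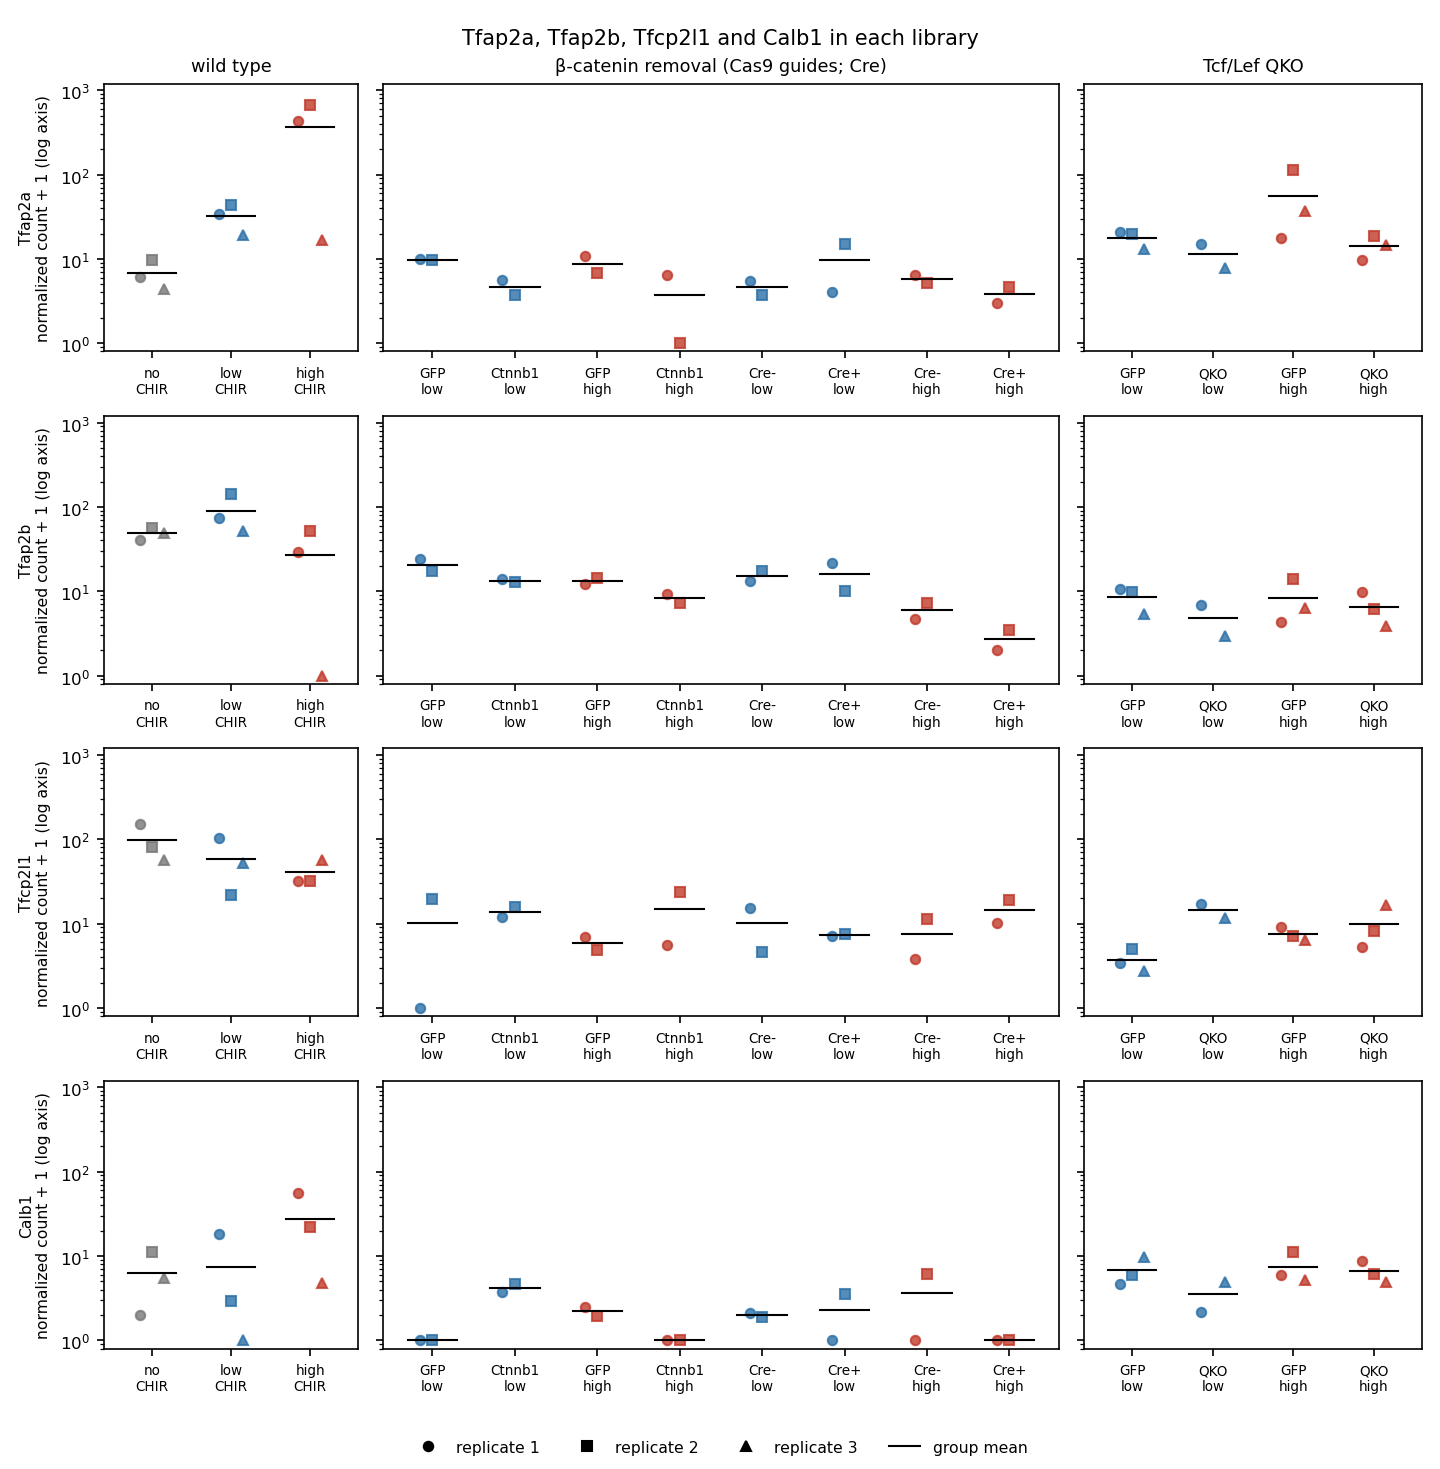
Normalized counts of *Tfap2a*, *Tfap2b*, *Tfcp2l1* and *Calb1* plus 1 in every library, on a log axis, by group, with 1 point per library and a line at the group mean. *Tfap2a* is split in wild-type high CHIR, with 435 and 657 in replicates 1 and 2 and 15.9 in replicate 3.

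**Figure D3:**
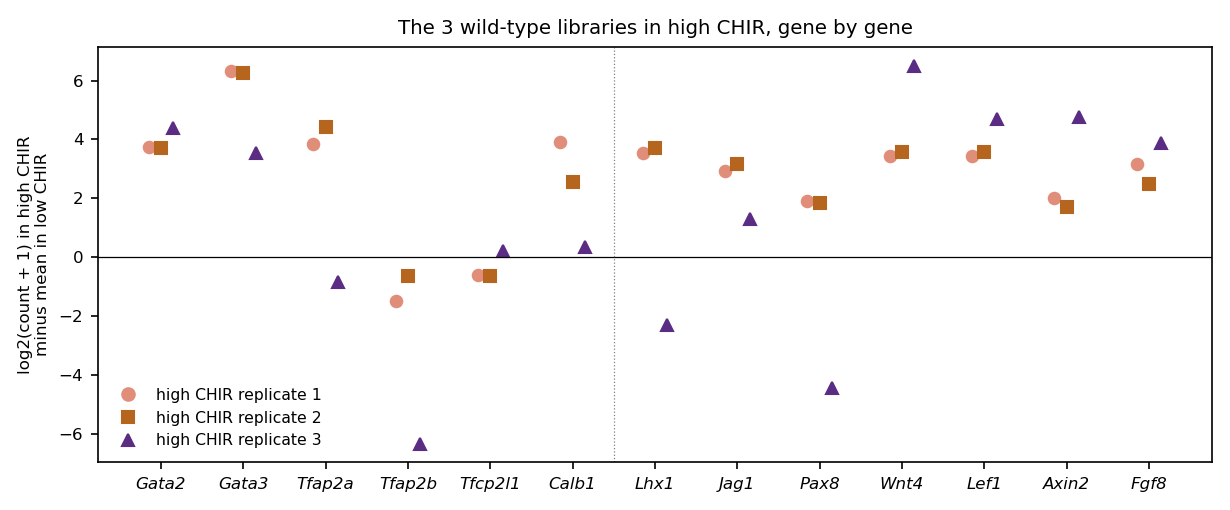
Difference of each wild-type high CHIR library from the mean of the low CHIR libraries, on the log2(normalized count + 1) scale, for the 6 genes on the left of the dotted line and 7 genes of the early nephron and CHIR response on the right. Replicate 3 lies apart from replicates 1 and 2 for *Tfap2a* (-0.85 against 3.84 and 4.44) and *Lhx1* (-2.29 against 3.54 and 3.71) and above them for *Gata2* and *Wnt4*.

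The same question was put to the control NPCs of the removal experiments, which were normalized in tables of their own. In the β-catenin experiment only *Gata2*, *Gata3* and *Tfap2b* had a mean of at least 10 and were tested. *Gata2* rose in both kinds of control. With the GFP sgRNA it had 139 and 127 normalized counts in high CHIR against 0.994 and 10.8 in low CHIR, where the 2 libraries held 1 and 10 reads of it. The difference was 4.79 (SE 1.21, adjusted p = 0.0287). In Cre-neg NPCs it had 188 and 289 against 2.22 and 22.9, from 2 and 25 reads, a difference of 4.74 (SE 1.21, adjusted p = 0.0275). These calls did not hold when single libraries were left out. Without low CHIR replicate 1, high CHIR replicate 1 or high CHIR replicate 2 of the GFP sgRNA, the adjusted p was 0.243, 0.131 or 0.14, and without the same libraries of the Cre-neg NPCs it was 0.242, 0.095 or 0.135, in fits that assume the lone library to vary like the other groups.

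*Gata3* overlapped between the doses in these controls, and the main test did not call it. With the GFP sgRNA it had 114 and 78.5 normalized counts in high CHIR against 91.4 and 27.1 in low CHIR (difference 0.91, SE 0.82, adjusted p = 0.572). In Cre-neg NPCs it had 52.5 and 224 against 23.3 and 72.3 (difference 1.38, SE 0.82, adjusted p = 0.349). Within each replicate number, high CHIR was the higher in both controls. With the replicate number as a block, *Gata3* was past the threshold in Cre-neg NPCs (adjusted p = 0.0196) and not with the GFP sgRNA. The tables were normalized separately, so levels were not tested across them.

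*Tfap2b* had 11.2 and 13.4 normalized counts with the GFP sgRNA in high CHIR against 22.9 and 16.2 in low CHIR (difference -0.61, adjusted p = 0.601). In Cre-neg NPCs it had 3.68 and 6.22 against 12.2 and 16.5 (difference -1.39, adjusted p = 0.18). In each of these pairs the high CHIR libraries were the lower ones, with no overlap. Between groups of 2 libraries, a lack of overlap arises often without a true difference. Its share over all genes was not counted, here or below, so it is given as a description only. *Tfap2a* (0 to 14.2 normalized counts over the 16 libraries), *Calb1* (0 to 5.19) and *Tfcp2l1* (0 to 22.9) were too low to test, and *Calb1* was at 0 in 8 of the 16. Of the 3 genes tested, 1 was called in each control, against 7.51% of 16780 genes with the GFP sgRNA and 8.05% in Cre-neg NPCs.

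In the GFP sgRNA controls of the QKO experiment, which had a longer knockout period, *Gata2* and *Gata3* both rose in high CHIR. *Gata2* had 430, 278 and 163 normalized counts in high CHIR against 23.2, 14.8 and 15.6 in low CHIR, a difference of 3.87 (SE 0.34, adjusted p = 2.09e-05). *Gata3* had 297, 590 and 187 against 44.0, 10.9 and 16.4, a difference of 3.93 (SE 0.69, adjusted p = 0.00227). Neither gene overlapped between the doses.

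*Tfap2a* had 16.5, 113 and 36.1 normalized counts against 19.6, 18.8 and 12.1, which overlapped (difference 1.27, SE 0.60, adjusted p = 0.191). Without high CHIR replicate 1 the difference was 1.90 (adjusted p = 0.0423). *Tfap2b* (1.95 to 13.1 over the 11 libraries), *Calb1* (1.16 to 10.1) and *Tfcp2l1* (1.73 to 16.3) were too low to test. Of the 3 genes tested, 2 were called, against 14.9% of 15878 genes.

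**Figure D4:**
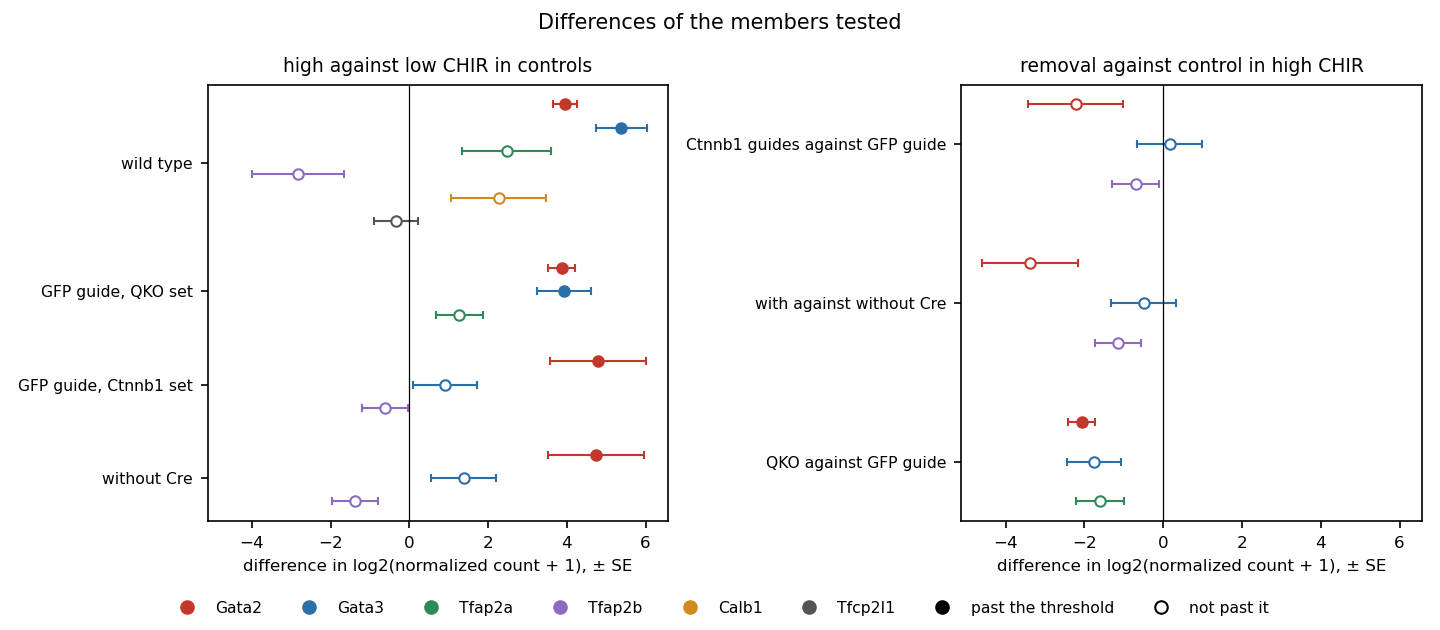
Differences of the tested genes on the log2(normalized count + 1) scale with their SE from limma, for high against low CHIR in the 4 control sets (left) and for removal against control in high CHIR (right), with filled points past the threshold. *Gata2* lies between 3.87 and 4.79 in the 4 control sets and between -3.38 and -2.07 for the removals, of which only the QKO value is past the threshold.

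Next, the genes were compared between NPCs with β-catenin reduced and their controls in high CHIR. *Gata2* had 32.2 and 23.8 normalized counts with the *Ctnnb1* sgRNAs against 139 and 127 with the GFP sgRNA. The groups did not overlap. The difference was -2.22 (SE 1.21, adjusted p = 0.34), which was past the threshold only in a fit of these libraries alone (adjusted p = 0.01). In Cre-pos NPCs *Gata2* had 8.08 and 54.6 against 188 and 289 in Cre-neg NPCs, again with no overlap. The difference was -3.38 (SE 1.21, adjusted p = 0.114). Of 8 alternatives that kept all libraries, 2 put this difference past the threshold. They were a pseudocount of 5 (-3.09, adjusted p = 0.027) and a limma fit that paired same-numbered libraries (adjusted p = 0.00821). So *Gata2* was lower in all 4 libraries with β-catenin reduced in high CHIR than in their controls, and in neither system did the main test across all genes call it.

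*Gata3* did not separate by β-catenin. It had 174 and 64.3 normalized counts with the *Ctnnb1* sgRNAs in high CHIR against 114 and 78.5 for the GFP sgRNA (difference 0.16, SE 0.82, adjusted p = 0.938), and 48.5 and 121 in Cre-pos against 52.5 and 224 in Cre-neg NPCs (difference -0.50, SE 0.82, adjusted p = 0.79). Leaving out a single library turned the sign of either difference.

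*Tfap2b* had 8.29 and 6.16 normalized counts with the *Ctnnb1* sgRNAs against 11.2 and 13.4 (difference -0.70, adjusted p = 0.56), and 1.01 and 2.43 in Cre-pos against 3.68 and 6.22 in Cre-neg NPCs (difference -1.15, adjusted p = 0.295). The libraries with β-catenin reduced were the lower ones in both systems, at levels of a few reads. Limma called 0 of the 3 tested genes with the *Ctnnb1* sgRNAs, against 5.09% of all genes, and 0 of 3 in Cre-pos NPCs, against 8.65%. At an unadjusted p under 0.05 these counts were 0 and 1, against 2849 and 3153 of all 16780 genes. By edgeR and DESeq2, 0 were called in both.

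In low CHIR, *Gata2* had 0 and 7.35 normalized counts with the *Ctnnb1* sgRNAs against 0.994 and 10.8 with the GFP sgRNA, and 7.24 and 28.3 in Cre-pos against 2.22 and 22.9 in Cre-neg NPCs. *Gata3* had 167 and 61.5 with the *Ctnnb1* sgRNAs against 91.4 and 27.1, and 54.9 and 85.0 in Cre-pos against 23.3 and 72.3 in Cre-neg NPCs. All 4 of these comparisons overlapped. *Tfap2b* had 12.8 and 11.9 with the *Ctnnb1* sgRNAs against 22.9 and 16.2, and 20.7 and 9.01 in Cre-pos against 12.2 and 16.5 in Cre-neg NPCs, and overlapped only in the latter. Limma called 0 of the 3 genes in either system, against 0.0536% of all genes with the *Ctnnb1* sgRNAs and 0.328% in Cre-pos NPCs. At an unadjusted p under 0.05 the counts were 0 and 0, against 490 and 1411 of all 16780 genes, and edgeR and DESeq2 called 0.

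Within the NPCs with β-catenin removed, high CHIR was compared with low CHIR. With the *Ctnnb1* sgRNAs, *Gata2* had 32.2 and 23.8 in high against 0 and 7.35 in low CHIR, with no overlap (difference 3.31, SE 1.21, adjusted p = 0.375). In Cre-pos NPCs it had 8.08 and 54.6 against 7.24 and 28.3, which overlapped (difference 0.53, SE 1.21, adjusted p = 1.00). *Gata3* differed by 0.06 and 0.17 and *Tfap2b* by -0.71 and -2.49 between the doses with the *Ctnnb1* sgRNAs and in Cre-pos NPCs. Limma called 0 of 3 genes in either, against 0.763% of all genes with the *Ctnnb1* sgRNAs and 0.292% in Cre-pos NPCs. At an unadjusted p under 0.05 there were 1 and 1, against 1274 and 532 of all 16780 genes, and edgeR and DESeq2 called 0.

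The difference between these responses to CHIR was tested as an interaction. For *Gata2* the estimated response was smaller with the *Ctnnb1* sgRNAs than with the GFP sgRNA (interaction -1.47, SE 1.71, adjusted p = 0.918), and smaller in Cre-pos than in Cre-neg NPCs (interaction -4.21, SE 1.71, adjusted p = 0.474). For *Gata3* the interactions were -0.85 (adjusted p = 0.937) and -1.21 (adjusted p = 0.846). Limma called 0 of 3 genes in either system, against 0.518% of all genes for the *Ctnnb1* sgRNAs and 0.995% for Cre. At an unadjusted p under 0.05 there were 0 and 1, against 1139 and 1420 of all 16780 genes, and edgeR and DESeq2 called 0.

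Removal of the Tcf/Lef factors lowered *Gata2* in high CHIR. *Gata2* had 67.8, 66.5 and 55.9 normalized counts in QKO NPCs against 430, 278 and 163 with the GFP sgRNA. All QKO libraries were below all controls, and the difference was -2.07 (SE 0.34, adjusted p = 0.00781). The call held in each of the 6 fits that left out 1 of these libraries, between -2.43 and -1.74 (adjusted p from 0.00296 to 0.0444). It also held with edgeR and DESeq2.

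*Gata3* had 74.7, 171 and 64.6 normalized counts in QKO NPCs against 297, 590 and 187. The groups did not overlap, although the highest QKO library was close to the lowest control, and within each replicate number QKO was the lower. The difference was -1.76 (SE 0.69, adjusted p = 0.255, and 0.0812 with the replicate number as a block). *Tfap2a* had 8.69, 17.7 and 13.5 against 16.5, 113 and 36.1, which overlapped, although QKO was the lower within each replicate number (difference -1.61, SE 0.60, adjusted p = 0.23), and DESeq2 alone put it past the threshold (-2.08, adjusted p = 0.0468). Of the 3 genes tested, 1 was called in high CHIR, against 2.54% of all genes. At an unadjusted p under 0.05 there were 3, against 1770 of all 15878 genes. DESeq2 called 2 of the 3, and 859 over all genes.

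In low CHIR, QKO NPCs had 22.1 and 17.6 normalized counts of *Gata2* against 23.2, 14.8 and 15.6, and 66.2 and 10.8 of *Gata3* against 44.0, 10.9 and 16.4. *Tfap2a* had 13.9 and 6.84 against 19.6, 18.8 and 12.1. All of these overlapped, with differences between -0.69 and 0.42. Limma called 0 of 3, against 0.0063% of all genes. At an unadjusted p under 0.05 there were 0, against 570 of all 15878 genes, and edgeR and DESeq2 called 0.

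*Gata2* was higher in high than in low CHIR in QKO NPCs too, by a call that several alternatives lost. It had 67.8, 66.5 and 55.9 normalized counts in high against 22.1 and 17.6 in low CHIR, with no overlap, a difference of 1.63 (SE 0.38, adjusted p = 0.0477). The call was lost with a pseudocount of 5, without the filter on low values and with edgeR (adjusted p of 0.0554, 0.0547 and 0.061), and in each of the 5 fits that left out 1 library (0.108 to 0.244). *Gata3* had 74.7, 171 and 64.6 against 66.2 and 10.8, which overlapped (difference 1.76, SE 0.77, adjusted p = 0.317), and *Tfap2a* differed by 0.35. Of the 3 genes, 1 was called, against 2.54% of all genes.

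The estimated response of *Gata2* to CHIR was smaller in QKO than in control NPCs (interaction -2.24, SE 0.52, adjusted p = 0.195). In this experiment, libraries with the same replicate number deviated together, and with the replicate number as a block the interaction was -2.22 (adjusted p = 0.0382). DESeq2 gave -2.36 (adjusted p = 0.0175). For *Gata3* the interaction was -2.18 (SE 1.03, adjusted p = 1.00) and for *Tfap2a* -0.92 (adjusted p = 1.00). Limma without the block called 0 of 3 genes, against 0.126% of all genes. At an unadjusted p under 0.05 there was 1, against 786 of all 15878 genes. By edgeR 0 of the 3 were called and by DESeq2 1, with 158 over all genes by DESeq2.

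The 6 genes were then read beside other genes of the same lineages. Of 20 genes of ureteric epithelium and collecting duct, 13 had a row in the wild-type table and 10 were tested. In wild-type NPCs, 4 of the 10 rose in high CHIR and 0 fell. They were the keratins *Krt18* (1.95) and *Krt19* (1.52), the cell adhesion gene *Epcam* (1.93) and *Hoxb7* (1.22). *Hoxb7* is a homeobox gene of the duct and was named after its value was seen. *Epcam* encodes CD326, an antigen by which cells were depleted at isolation. The median difference was 1.19 against 0.01 over all genes, and in the other controls it was -0.82 with the GFP sgRNA in the β-catenin experiment, 0.37 in Cre-neg NPCs and 0.51 in the QKO controls. The summed level of the list was 3279 to 3950 normalized counts in low and 4628 to 7179 in high CHIR in wild-type NPCs, but 2145 to 3202 in low and 1207 to 1686 in high CHIR with the GFP sgRNA in the β-catenin experiment. In contrast to the genes that rose, *Ret*, the receptor of the ureteric tip, stayed between 0 and 5.99 normalized counts in low and between 2.79 and 4.48 in high CHIR, below the filter. *Krt18* also rose with the GFP sgRNA in the β-catenin experiment (2.11), in Cre-neg NPCs (1.87) and in the QKO controls (2.75), and *Hoxb7* in the last 2 (1.02 and 1.18). In Cre-neg NPCs the count of 2 that rose was 1 without low CHIR replicate 2 or either high CHIR replicate, and 0 when only these libraries were fitted. *Sox9*, which marks the ureteric tip and is also expressed in other kidney cells, fell in these 3 controls, with differences of -2.52, -2.85 and -2.34, of which the first was not called without low CHIR replicate 2 or high CHIR replicate 1. Without replicate 3 in high CHIR it fell in wild-type NPCs as well, by 0.56, and 4 genes rose, as with all libraries.

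On removal of β-catenin in high CHIR, *Sox9* was higher with the *Ctnnb1* sgRNAs (2.44) and in Cre-pos NPCs (2.49), and *Krt19* with the *Ctnnb1* sgRNAs (2.39). These were 2 of 9 and 1 of 9 genes tested, and 0 of them fell. With the *Ctnnb1* sgRNAs the count was 0 without *Ctnnb1* sgRNA replicate 2 or GFP sgRNA replicate 1 and 1 without *Ctnnb1* sgRNA replicate 1, and for Cre it was 0 without Cre-pos replicate 1 or when only these libraries were fitted. With the replicate block, 1 gene fell in each system. In QKO NPCs in high CHIR, limma called 0 of 8 (median -0.20 against 0.00 over all genes), and edgeR called 0 and DESeq2 1.

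Of 20 genes of the distal nephron and connecting tubule, 14 had a row in the wild-type table and 11 were tested. In wild-type NPCs in high CHIR, 3 rose and 0 fell, namely *Dlx5* (4.79), *Irx3* (3.11), an Iroquois factor of the intermediate nephron, and *Wfdc2* (2.55), which encodes a secreted epithelial protein. The median was 1.82 against 0.01 over all genes, and without replicate 3 there were 7 of 11 higher with a median of 2.89. When any other single library was left out, 0 or 1 rose. With the GFP sgRNA in the β-catenin experiment and in Cre-neg NPCs, 2 of 7 rose, *Emx2* (3.47 and 5.88), a homeobox gene of the urogenital epithelium, and *Wfdc2* (2.99 and 2.94). With the GFP sgRNA the count was 1 without any 1 of the 4 libraries or with a pseudocount of 0.5. The median was 0.16 with the GFP sgRNA and 0.74 in Cre-neg NPCs. In the QKO controls 5 of 8 rose, among them *Emx2* (8.90), *Mecom* (4.94) and *Wfdc2* (4.26), and the median was 3.77. The transporter *Slc12a3* of the distal convoluted tubule stayed between 0 and 5.58 normalized counts in wild-type NPCs.

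*Wfdc2* fell on removal of β-catenin in high CHIR, by 1.99 with the *Ctnnb1* sgRNAs and by 2.73 in Cre-pos NPCs, as 1 of 7 genes in each. With the *Ctnnb1* sgRNAs this call was lost without any 1 of the 4 libraries. In QKO NPCs in high CHIR, limma called 0 of 8, with a median of -1.46, and with the replicate number as a block 3 fell. By edgeR 1 fell and by DESeq2 2. In QKO NPCs, 3 of 8 were higher in high than in low CHIR, *Emx2* (5.74), *Pou3f3* (3.14) and *Wfdc2* (2.36).

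Of 13 relatives of these factors in the Gata, Tfap2 and grainyhead-like families, 6 were tested in wild-type NPCs and limma called 0 between high and low CHIR. *Grhl1*, a grainyhead-like factor, rose with the GFP sgRNA in the β-catenin experiment (2.89), in Cre-neg NPCs (2.59) and in the QKO controls (2.18). *Tfap2c*, an AP-2 factor of trophoblast and germ cells, rose in the QKO controls (3.87). On removal of β-catenin or the Tcf/Lef factors in high CHIR, limma called 0 of 4, 0 of 4 and 0 of 5 of these relatives.

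In the same libraries, of the early nephron and CHIR response genes, 5 of 9 rose in high CHIR in wild-type NPCs, 6 of 8 with the GFP sgRNA in the β-catenin experiment, 6 of 8 in Cre-neg NPCs and 9 of 9 in the QKO controls. Without replicate 3 in wild-type high CHIR, all of the 9 but *Ccnd1* (1.13, adjusted p = 0.0953) were called higher there. Of these response genes, 5 of 8 fell with the *Ctnnb1* sgRNAs and 7 of 8 in Cre-pos NPCs in high CHIR, where the main test called neither *Gata2* nor *Gata3*. The median differences of the response genes there were -2.05 and -2.58. The differences of *Gata2* given above were below these medians, and those of *Gata3* were not. In QKO NPCs in high CHIR, where *Gata2* was called lower, 0 of 9 response genes were called lower and 1 higher. Their median difference there was -1.19, against 0.00 over all genes. In either direction, 7 of the 9 had an unadjusted p under 0.05 by limma. Over all 15878 genes, 1770 did so with a log2 difference of at least 0.5. Of 6 progenitor genes, 6, 4, 6 and 6 fell in high CHIR in these 4 controls, and 4 and 5 were higher on removal of β-catenin and 5 in QKO NPCs.

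*Gata2* is also a gene of blood and endothelium, so markers of these cells were read in the same libraries. Of 9 blood markers, 6 had a row in the wild-type table. Their summed level was 286 to 365 normalized counts in low CHIR and 4469 to 5296 in high CHIR in wild-type NPCs, and this was carried by *Kit*, which rose from 151 to 234 in low CHIR to 4405 to 5189 in high CHIR. The leukocyte gene *Ptprc* stayed between 0 and 8.41 in high and between 9.49 and 23.7 in low CHIR. In the QKO experiment the sum of the markers was 101 to 179 in control libraries in low CHIR, 1671 to 2352 in high CHIR and 391 to 585 in QKO NPCs in high CHIR, and *Kit* fell by 2.14 in QKO NPCs (adjusted p = 0.0101). In the β-catenin experiment in high CHIR, the sum was 554 to 607 with the GFP sgRNA and 433 to 1095 with the *Ctnnb1* sgRNAs, and 778 to 1127 in Cre-neg and 859 to 2987 in Cre-pos NPCs. The summed level of 8 endothelial markers was 326 to 384 in low and 481 to 1232 in high CHIR in wild-type NPCs, where *Tek* rose (6.95, adjusted p = 0.00895) and *Cldn5*, at 10.8 to 31.3 in low CHIR and at 0 in all 3 libraries in high CHIR, fell (adjusted p = 0.000674), while *Cdh5* and *Pecam1* had at most 6.72 and 33.6 normalized counts in high CHIR. In the β-catenin experiment this sum went the other way, with 299 to 320 in high against 334 to 429 in low CHIR with the GFP sgRNA and 183 to 231 against 257 to 511 in Cre-neg NPCs. On removal in high CHIR it was 517 to 551 with the *Ctnnb1* sgRNAs, against 299 to 320 with the GFP sgRNA. It was 321 to 577 in Cre-pos NPCs, against 183 to 231 in Cre-neg NPCs. In the QKO experiment in high CHIR it was 269 to 354 in controls and 287 to 397 in QKO NPCs. Of the antigens depleted at isolation, Ter119 marks erythroid cells and CD105 is found on endothelium. The part of these cells in the result of *Gata2* was not tested.

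In wild-type NPCs and the QKO controls, the summed level of 9 stromal markers was lower in high CHIR, with 5336 to 14354 normalized counts against 20395 to 26522 in low CHIR in wild-type NPCs and 2047 to 5356 against 5977 to 12302 in the QKO controls. In QKO NPCs in high CHIR it was 2677 to 10980. In the β-catenin experiment the doses overlapped with the GFP sgRNA, with 8078 to 23369 in high and 14810 to 29585 in low CHIR, and did not in Cre-neg NPCs, with 7641 to 8620 and 10239 to 15580. *Tfap2a* and *Tfap2b* are also expressed in neural crest, and the 4 of 8 markers of that lineage with a row in the wild-type table summed to at most 46.1 normalized counts in any wild-type library in low or high CHIR. The part of stroma and of neural crest in the results was not tested.

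As a description of pattern, the log2(normalized count + 1) of each gene was centered within its table and correlated over the 36 libraries with that of the other 14952 genes with a mean of at least 10 in all tables. The genes most like *Gata2* were *Slit2* (Pearson's r = 0.923), *Vegfc* (0.914) and *Pdgfa* (0.905), and those most like *Gata3* were *Gap43* (0.946), *Nav1* (0.898) and *Rrad* (0.895). *Gata2* and *Gata3* had an r of 0.636 with each other. These libraries share the contrast of high with low CHIR, so a high r is common to all genes that follow the dose, and no p is given.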

How the data were processed

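Bulk RNA was sequenced as 150-base paired reads. The authors aligned reads to combined mouse GRCm38 and human GRCh38 genomes with STAR, counted unambiguous unique reads per gene with featureCounts, and deposited 3 tables of signal, DESeq2-normalized counts, each normalized separately. Whole reads were recovered for 100% of values (tolerance 0.1 read). The deposited tables of comparisons (8 files of log2 fold changes and p-values) and 50 further per-sample columns in them were not used.

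Each table was fitted separately with limma 3.58.1 (R 4.3.3, trend) on log2(normalized count + 1), for genes with a mean of at least 10, over all its libraries, with Benjamini-Hochberg adjustment over all genes tested. Called genes had an adjusted p under 0.05 and a log2 difference of at least 0.5. edgeR 4.0.16 and DESeq2 1.42.0 were run on recovered reads as alternatives, beside other pseudocounts, filters, TMM scaling, a replicate block and leaving out each library. An exact test of 3 against 3 libraries cannot go below 0.1. Scripts were tested on simulated data.

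Same-numbered libraries deviated together in the QKO table (r from 0.214 to 0.637 over 15 pairs), where headers of the deposited comparison tables give them shared dates, so the numbers pair the samples there. In the wild-type table r was -0.0156 to 0.272 over 9 pairs, and in the β-catenin table -0.265 to 0.518 over 56 pairs. The latter range includes pairs of a Cas9-eGFP with a Cre group. Between the Cre groups r was 0.334 to 0.518, and between the Cas9-eGFP groups 0.116 to 0.491. With 2 libraries per group, both pairs of any 2 groups have the same r.

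The 6 genes and the gene lists were chosen with earlier results of these data known. All 6 genes are named in every table, genes of the early nephron, progenitor and targeted lists where read beside them, and of other lists up to 3 of the largest called changes in each direction without overlap between groups. For *Gata2* and *Gata3*, the 3 genes with the highest r are named. *Ret*, *Slc12a3*, *Ptprc*, *Cdh5* and *Pecam1* were named as defining markers of their lists.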

Additional observations from a re-analysis of the deposited data

Results flagged for a closer look

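The difference between the responses of *Gata2* to CHIR in QKO and control NPCs was flagged from an alternative fit, and the main test did not call it. Of 7 alternatives that kept all libraries, 2 were past the threshold, the replicate block and DESeq2, and edgeR called 0 genes. With the replicate number as a block, the interaction was -2.22 on the log2 scale (adjusted p = 0.0382, limma), and without the block it was -2.24 (adjusted p = 0.195).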

How the results depend on the processing

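Of 433 alternative fits of the 6 genes, over 32 results, 397 kept direction and side of the threshold, 14 lost the call, 14 gained it and 8 reversed, the last in 5 results. When single libraries were left out, *Tfcp2l1* in wild-type high against low CHIR ranged from -0.92 to 0.20. For *Gata3* on removal of β-catenin in high CHIR it was -0.55 to 0.87 with the *Ctnnb1* sgRNAs (-0.10 without GFP sgRNA replicate 2) and -1.53 to 0.54 with Cre (0.16 without Cre-pos replicate 1). *Gata2* in Cre-pos NPCs, high against low CHIR, ranged from -0.78 to 1.84 (-0.38 without low CHIR replicate 1), and its interaction with the *Ctnnb1* sgRNAs from -3.004 to 0.0573. The cause of these changes was not tested.

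The number of the genes called became 1 between no and low CHIR, and 1 for the *Ctnnb1* sgRNAs in high CHIR, when only these libraries were fitted. In the β-catenin table the replicate block pairs samples by their number, and same-numbered libraries deviated together between the Cre groups. With this block it became 2 in Cre-neg NPCs between doses (*Gata2*, and *Gata3* with an adjusted p of 0.0196). It became 1 for Cre in high CHIR (*Gata2*, 0.00821) and 1 within the *Ctnnb1* sgRNAs between doses (*Gata2*, 0.0379). It became 1 for Cre in high CHIR with a pseudocount of 5 and 2 for QKO in high CHIR with DESeq2. For QKO NPCs between doses it became 0 with a pseudocount of 5, without the filter, with edgeR and without any 1 library. The QKO interaction gave 1 with the block and with DESeq2, and 0 to 1 without single libraries. The dose comparisons with the GFP sgRNA of the β-catenin table and in Cre-neg NPCs gave 0 to 1. The block changed no other call of the 6 genes. Fitting only the compared libraries was not run for the QKO interaction, which uses all of them.

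Calls over all genes moved by more than 1.5 times as follows, with the reported count in parentheses. With the block they were 2562 (1260) for dose with the GFP sgRNA and 2661 (1350) in Cre-neg NPCs, 2133 (854) and 2639 (1452) for removal of β-catenin by sgRNA and Cre in high CHIR, 21 (9) and 513 (55) in low CHIR, 447 (128) and 128 (49) for dose after removal, and 235 (87) and 526 (167) for the interactions. For QKO they were 1181 (404) in high and 16 (1) in low CHIR, 952 (403) between doses and 136 (20) for the interaction. With DESeq2 they were 1784 (865) for no against low CHIR, 1479 for removal of β-catenin by sgRNA in high CHIR, 30 and 278 by sgRNA and Cre in low CHIR, 319 and 95 for dose after removal, 210 and 381 for the interactions, and 859, 22, 888 and 158 for QKO in the order above. With only the compared libraries they were 1567 for no against low CHIR, 552 for dose in Cre-neg NPCs, 1728 and 624 for removal in high CHIR, 0 and 4 in low CHIR, 214 and 0 for dose after removal, and 49 for the Cre interaction. A log2 cut-off of 1 gave 499 for no against low CHIR and 1568 (2372) for the QKO controls. A pseudocount of 0.5 or TMM gave 0 for the *Ctnnb1* sgRNAs in low CHIR, and no filter gave 4 for QKO in low CHIR. Where leaving out a single library moved the count so far, it was 995 to 1202 (1808) for wild-type high and 113 to 310 for no against low CHIR, 504 to 666 for dose with the GFP sgRNA, 776 to 795 in Cre-neg NPCs and 1545 in the QKO controls. For β-catenin it was 204 to 421 and 838 to 948 in high CHIR, 0 to 1 and 18 to 303 in low CHIR, 31 to 67 and 13 to 28 for dose after removal, and 29 to 56 and 95 to 103 for the interactions. For QKO it was 157 to 224, 2 to 4, 129 to 186 and 4 to 50.

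*Calb1* in all tables, and *Gata2* in low CHIR in the β-catenin table, rest on few reads in several libraries, and groups of 2 libraries limit the precision of that table.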
